A study of Mus musculus with 4 samples.

Results

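The genes described here encode MHC class I, the molecule with which a cell shows peptides from its own proteins to CD8 T cells and NK cells. The 9 genes were chosen by symbol, from the 31053 genes of the feature table, and all 9 were found. B2m encodes beta-2-microglobulin, the light chain that the heavy chains need to fold and reach the surface. H2-K1 and H2-D1 encode the classical heavy chains. H2-Q4, H2-Q6, H2-Q7, H2-T22, H2-T23 and H2-M2 encode non-classical heavy chains.

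The libraries came from orthotopic B6KPC3 pancreatic tumours in C57BL/6 mice. Tumours were 7 days old when treatment began. In the AT38 group, mice received 30 mg/kg of AT38 per day in 1% carboxymethyl cellulose, split over paired daily intraperitoneal injections, for 7 days. In the vehicle group, mice received 1% carboxymethyl cellulose alone on the same schedule. Each group had 2 libraries, and each library held sorted CD45-enriched cells pooled from 4 mice. CD45 is the surface marker of blood-derived cells, so tumour cells reached these libraries only as far as the sort let them through. All animals carried the tumour and none is given as untreated. AT38 is known here by its code name alone, and no structure is described.

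Class I heavy chains are loaded in the endoplasmic reticulum with peptides cut by the proteasome and carried in by the TAP transporter. Interferons raise the transcription of the heavy chains, of B2m and of the loading machinery in most cell types, through promoter elements read by interferon regulatory factors, and NF-kB and NLRC5 act on the same promoters. The non-classical genes have roles of their own. H2-T23 encodes Qa-1, whose complex with a leader peptide is read by the CD94-NKG2A receptor of NK and CD8 T cells. H2-Q6 and H2-Q7 belong to the Qa-2 group, and H2-T22 is a ligand of some gamma-delta T cell receptors. Low class I on a tumour cell limits its recognition by CD8 T cells.

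B2m lies on chromosome 2 at chr2:122147686-122153083 on the plus strand (GRCm38, GENCODE M21). The heavy chains lie in the H2 complex of chromosome 17. H2-K1 lies at chr17:33996017-34000347 on the minus strand. H2-D1 at chr17:35262730-35267499, H2-Q4 at chr17:35379617-35385290, H2-Q6 at chr17:35424850-35430055 and H2-Q7 at chr17:35439155-35443773 follow one another on the plus strand. H2-T23 at chr17:36029773-36032855, H2-T22 at chr17:36037128-36042747 and H2-M2 at chr17:37480851-37483552 lie on the minus strand.

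The promoters are shown because their letters differ between members, and a link to the levels described below was not tested. Each line gives 78 bases upstream of the gene's RefSeq start site (GRCm38.p6), 5′ to 3′ on the gene's strand. Capitals mark letters of the motifs GGGGATTCC (part of an NF-kB site), GTTTCACTT (an interferon regulatory factor element), GAAANNGAA (the core of an interferon-stimulated response element) and GGGAATTCC (a related NF-kB sequence), searched on both strands. In the H2-T22 window, GTTTCACTT overlaps a GAAANNGAA match on the other strand.
B2m: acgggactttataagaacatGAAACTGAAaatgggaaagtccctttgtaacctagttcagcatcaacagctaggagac
H2-K1: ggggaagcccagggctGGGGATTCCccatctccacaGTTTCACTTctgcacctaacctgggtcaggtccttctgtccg
H2-D1: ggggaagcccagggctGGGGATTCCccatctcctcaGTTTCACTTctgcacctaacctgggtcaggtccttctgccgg
H2-Q4: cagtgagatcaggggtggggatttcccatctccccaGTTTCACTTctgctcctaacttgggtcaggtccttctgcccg
H2-Q6: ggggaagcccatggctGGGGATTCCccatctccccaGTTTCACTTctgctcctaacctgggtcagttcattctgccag
H2-Q7: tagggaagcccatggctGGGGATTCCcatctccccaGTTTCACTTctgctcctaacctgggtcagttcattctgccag
H2-T22: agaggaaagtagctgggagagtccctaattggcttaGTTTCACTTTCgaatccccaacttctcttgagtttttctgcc
H2-T23: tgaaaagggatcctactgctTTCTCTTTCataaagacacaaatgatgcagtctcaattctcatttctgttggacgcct
H2-M2: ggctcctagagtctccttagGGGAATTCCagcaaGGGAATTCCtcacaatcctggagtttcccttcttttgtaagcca

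The windows are B2m chr2:122147528-122147605, H2-K1 chr17:34000397-34000474, H2-D1 chr17:35262907-35262984, H2-Q4 chr17:35379427-35379504, H2-Q6 chr17:35424661-35424738, H2-Q7 chr17:35439005-35439082, H2-T22 chr17:36042893-36042970, H2-T23 chr17:36032767-36032844 and H2-M2 chr17:37483676-37483753. H2-K1 and H2-D1 were identical at 75 of 78 bases (96.2%), and H2-K1 and H2-T22 at 34 of 78 (43.6%). GTTTCACTT was found in 6 members, and in 0.399% of 32851 start-site regions of 300 bases. GGGGATTCC was found in 4 members, H2-K1, H2-D1, H2-Q6 and H2-Q7, and in 0.25% of those regions. GAAANNGAA was found in B2m, H2-T22 and H2-T23 and in 8.56% of the regions, while GGGAATTCC was found in H2-M2 only among the members and in 0.225% of the regions. These matches describe letters in a window and say nothing of binding.

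The 4 libraries held 30232623 and 24294215 UMIs (AT38 libraries 1 and 2) and 24875092 and 34386076 UMIs (vehicle libraries 1 and 2), a UMI being 1 captured transcript molecule. Of 18001 barcodes, 14254 were kept and 1706 of these were left without a class name. Libraries shared between 0 and 4 barcodes per pair. Classes were named from marker genes after clustering without any H2 gene or B2m, so levels of those markers do not check the names. The 8 neutrophil markers summed to 64307 and 65268 CPM (UMIs scaled to a common total per class and library) in AT38 neutrophils and to 74094 and 78629 CPM in vehicle neutrophils. Kept cells held 319086 UMIs of B2m, 213653 of H2-K1, 155631 of H2-D1, 40532 of H2-Q7, 27536 of H2-T23, 23202 of H2-Q6, 11811 of H2-Q4, 9422 of H2-T22 and 2108 of H2-M2.

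Some of these counts may include reads from a near-identical gene. Of 91-base windows in the last 500 bases of each member's transcripts, 26.6% of those of H2-Q6, 12.9% of those of H2-T22 (all shared with H2-T10), 8.85% of those of H2-D1, 7.07% of those of H2-Q4 and between 2.19% and 4.24% of those of H2-K1, H2-Q7 and H2-T23 also occurred in another gene, so their levels are uncertain to that extent. B2m and H2-M2 shared none. Libraries count 3′ ends, so levels are compared between cells and not between genes.

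B2m, H2-K1 and H2-D1 averaged highest in regulatory T cells and lowest in epithelial cells. B2m averaged 5510 ± 362 CPM in regulatory T cells and 1417 ± 444 CPM in epithelial cells (SD, n = 4 libraries), 3.9-fold apart, among the 14 classes with at least 20 cells in every library. H2-K1 averaged 4765 ± 443 and 477 ± 182 CPM in the same classes, 10.0-fold apart, and H2-D1 averaged 2765 ± 119 and 502 ± 163 CPM, 5.5-fold apart. Mature dendritic cells (4845 ± 216 CPM) and NK cells (4270 ± 224 CPM) followed regulatory T cells for B2m, and cDC1, the dendritic cells that cross-present antigen, stood next to last with 1676 ± 143 CPM. Ranges over libraries overlapped for 11 of 13 pairs of neighbouring classes for B2m and for 7 of 13 pairs for H2-K1 and H2-D1 each, so most neighbours cannot be ranked. For B2m the overlapping pairs included regulatory T cells with mature dendritic cells, and cDC1 with epithelial cells. CPM give a share of a class's UMIs, and cells of different classes differed in depth. Over the 4 libraries, 251 regulatory T cells held 7657 B2m UMIs, 206 epithelial cells held 6447 and 164 cDC1 held 4035. The order in CPM is therefore not an order of UMIs per cell. Clusters and levels came from the same cells, so no test was made between classes.

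Of the 8 members counted in all 14 classes, the Qa-2 genes H2-Q7 and H2-Q6 spread most. H2-Q7 averaged 1277 ± 147 CPM in regulatory T cells, 925 ± 51.3 CPM in NK cells and 684 ± 14.2 CPM in CD8 T cells. It averaged 326 ± 18.7 CPM in B cells, 169 ± 34.3 CPM in neutrophils and 101 ± 17.2 CPM in monocytes. Epithelial cells had 15.1 ± 7.12 CPM, and the highest and lowest class were 84.7-fold apart. That fold is imprecise, as it rests on 72 epithelial UMIs, with libraries between 7.48 and 24.1 CPM. H2-Q6 averaged 610 ± 53.5 CPM in NK cells and 592 ± 84.2 CPM in regulatory T cells, its highest classes, whose ranges over libraries overlapped. In epithelial cells it stood at 27.9 and 6.41 CPM in AT38 libraries and 6.21 and 7.36 CPM in vehicle libraries, so that AT38 library 1 sets much of the epithelial mean of 12.0 CPM, and no fold is given. H2-Q4 averaged 270 ± 45.3 CPM in regulatory T cells and 12.4 ± 5.58 CPM in epithelial cells, 21.8-fold. This fold too is imprecise, with 74 epithelial UMIs and libraries between 8.03 and 20.4 CPM. Lymphocytes and mature dendritic cells held the high levels of all 3 Q genes, and the monocytes, macrophages, neutrophils and other dendritic cells held low ones.

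The T region genes varied less. H2-T23 averaged 497 ± 72.2 CPM in regulatory T cells, 388 ± 35.4 CPM in mature dendritic cells, 342 ± 32.3 CPM in cDC1, 338 ± 32.7 CPM in cDC2, 205 ± 20.2 CPM in neutrophils and 112 ± 32.3 CPM in epithelial cells, 4.4-fold from top to bottom. cDC1 and cDC2 followed conventional CD4 T cells (376 CPM) in the order for H2-T23, whereas cDC1 stood next to last for B2m. H2-T22 averaged 214 ± 58.0 CPM in regulatory T cells, 44.4 ± 4.34 CPM in neutrophils and 42.9 ± 1.51 CPM in mast cells and basophils, 5.0-fold. Ranges overlapped for 12 of 13 pairs of neighbouring classes for H2-T22 and H2-T23.

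**Figure D1:**
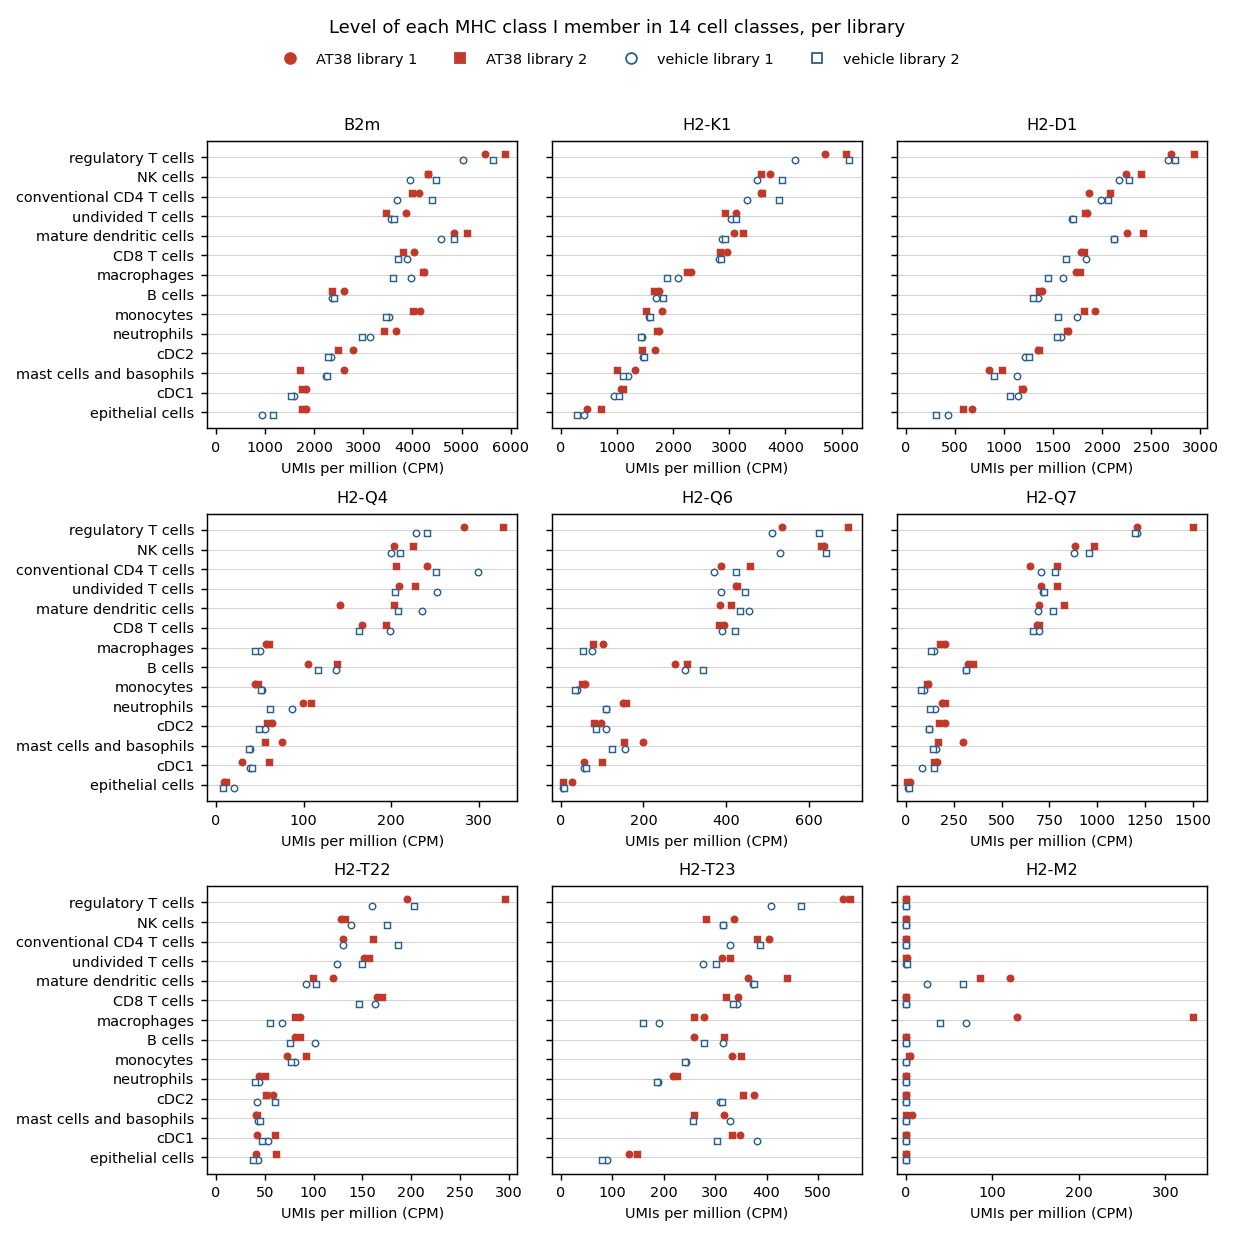
Level of each member in CPM (x axis, linear) in 14 cell classes (rows, in the order of the H2-K1 mean), with filled red symbols for AT38 libraries and open blue symbols for vehicle libraries. Regulatory T cells lead for B2m (mean 5510 CPM) and H2-K1 (4765 CPM), epithelial cells are last for both (1417 and 477 CPM), and H2-M2 departs from zero in macrophages and mature dendritic cells.

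Across the 14 class means, on the log2(CPM + 1) scale and with all classes drawn from the same 4 libraries, H2-Q6 and H2-Q7 had a Pearson r of 0.981, H2-K1 and H2-D1 one of 0.950, B2m and H2-D1 one of 0.935 and B2m and H2-T23 one of 0.590. H2-M2 had r between -0.08 and 0.34 with the other members. Of 7890 genes, those most like B2m over the 14 classes were Stat6 (r = 0.921), Gbp4 (0.913), Gbp9 (0.905), Tnip1 (0.894) and Tnfrsf1b (0.890). Fbxo7 (0.923), Hopx (0.918), Usp3 (0.916), Becn1 (0.915) and Sirt7 (0.908) were most like H2-K1. Fbxo7 (0.918), Sirt7 (0.917), Stat6 (0.916), Tnfrsf1b (0.900) and Dtx3l (0.894) were most like H2-D1. These values are descriptions over 14 points and carry no test.

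The balance between the classical heavy chains differed between cell classes. H2-K1 made up 65.7% and 63.3% of H2-K1 and H2-D1 UMIs in conventional CD4 T cells of the AT38 libraries and 62.5% and 65.4% in those of the vehicle libraries. In CD8 T cells its share was 62.4% and 61.0% in AT38 libraries and 60.5% and 63.6% in vehicle libraries. In cDC1 it was 47.3% and 48.4% in AT38 libraries and 45.4% and 49.4% in vehicle libraries, and in monocytes 48.2% and 45.5% in AT38 libraries and 47.2% and 50.7% in vehicle libraries. Among the 14 classes, the share over the 4 libraries ran between 59.8% and 65.7% in the T cell classes and NK cells. It ran between 45.4% and 50.7% in cDC1 and monocytes. Neutrophils had 51.5% and 51.2% in AT38 libraries and 47.7% and 48.0% in vehicle libraries, with AT38 above. Undivided T cells had 62.8% and 61.6% in AT38 libraries and 64.2% and 64.7% in vehicle libraries, with AT38 below. These splits were seen in the values and were not tested.

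**Figure D2:**
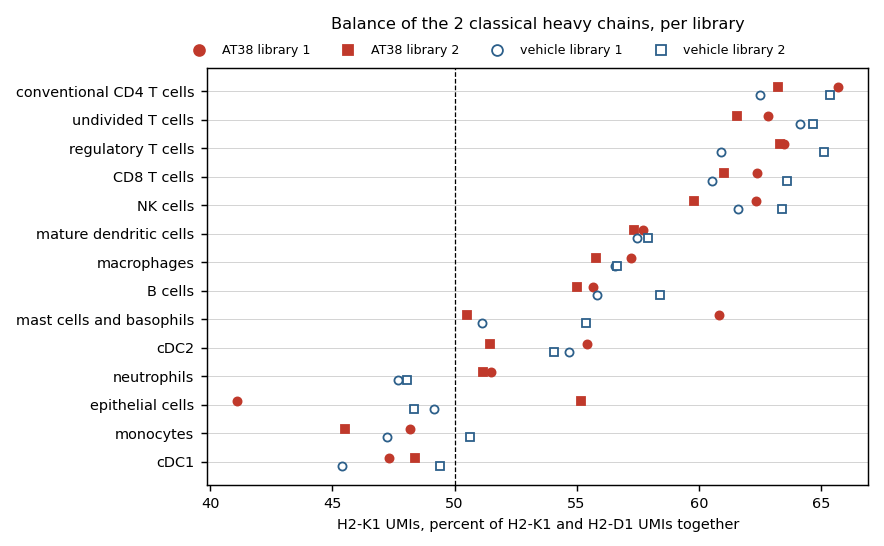
H2-K1 as a percentage of H2-K1 and H2-D1 UMIs together (x axis, not starting at 0, dashed line at 50%) in 14 classes (rows), one symbol per library, filled red for AT38 and open blue for vehicle. Conventional CD4 T cells reach 65.7% and cDC1 lie between 45.4% and 49.4%.

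In mononuclear phagocytes, the monocytes and macrophages together, every member was higher in both AT38 libraries than in both vehicle libraries, and H2-T23 alone passed the test. Of 9 members, 9 stood above the vehicle libraries without overlap, against 24.2% of the 9396 genes tested in these cells. With edgeR's quasi-likelihood test and Benjamini-Hochberg adjustment over all genes, 1 of 9 members was called at an adjusted p below 0.05, and 1.46% of all genes tested were called higher (2.62% in either direction). The median log2 fold change of the members was 0.28, and that of all genes tested was -0.000483.

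H2-T23, the Qa-1 heavy chain, stood at 297 and 295 CPM in AT38 phagocytes, against 209 and 189 CPM in vehicle phagocytes. Its log2 fold change was 0.55 ± 0.11 (SE, adjusted p = 0.011, edgeR). It was higher in both kinds of phagocyte: macrophages held 278 and 259 CPM in AT38 libraries and 192 and 159 CPM in vehicle libraries, and monocytes held 333 and 350 CPM in AT38 libraries and 243 and 241 CPM in vehicle libraries. The groups did not overlap in either class, against 25% and 18.9% of genes tested that stood higher in this way in macrophages and in monocytes. Fitted alone, the fold changes were 0.60 ± 0.14 in macrophages (adjusted p = 0.066, edgeR) and 0.50 ± 0.13 in monocytes (adjusted p = 0.126, edgeR), so neither passed. Without vehicle library 1 the macrophage value was 0.74 (adjusted p = 0.0148, edgeR) and without vehicle library 2 it was 0.43 (adjusted p = 0.358, edgeR), and it also passed without TMM scaling and with no filter on low counts. The call in phagocytes was lost without vehicle library 2 (0.45, adjusted p = 0.070, edgeR), with cells holding T cell UMIs kept in the class (0.43, adjusted p = 0.162, edgeR) and with every cell thinned to 1000 UMIs before summing (0.30, adjusted p = 0.615, edgeR).

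The Qa-2 genes were also higher in both AT38 libraries. H2-Q7 stood at 176 and 153 CPM in AT38 phagocytes, against 130 and 113 CPM in vehicle phagocytes, a log2 fold change of 0.42 ± 0.12 (adjusted p = 0.081, edgeR). H2-Q6 stood at 87.1 and 67.9 CPM in AT38 phagocytes, against 63.6 and 46.8 CPM in vehicle phagocytes (0.51 ± 0.17, adjusted p = 0.179, edgeR). Neither passed. B2m stood at 4213 and 4136 CPM in AT38 phagocytes and 3823 and 3549 CPM in vehicle phagocytes. H2-K1 stood at 2144 and 1953 CPM in AT38 phagocytes and 1910 and 1782 CPM in vehicle phagocytes, and H2-D1 at 1806 and 1789 CPM in AT38 phagocytes and 1654 and 1487 CPM in vehicle phagocytes. The log2 fold changes of B2m, H2-K1 and H2-D1 were 0.15, 0.12 and 0.17, and each was within 2 standard errors of 0.

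The phagocytes of the groups also differed in their markers. In macrophages the 9 macrophage markers summed to 15197 and 16301 CPM in AT38 libraries and 8698 and 10211 CPM in vehicle libraries, and the 7 monocyte markers to 2037 and 1392 CPM in AT38 libraries and 4692 and 3887 CPM in vehicle libraries. None of the 16 markers was at 0 in any library. The 6 T cell markers summed to 26.40 and 23.97 CPM in AT38 macrophages and 19.32 and 16.32 CPM in vehicle macrophages. The part of these differences in the class I values was not tested.

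**Figure D3:**
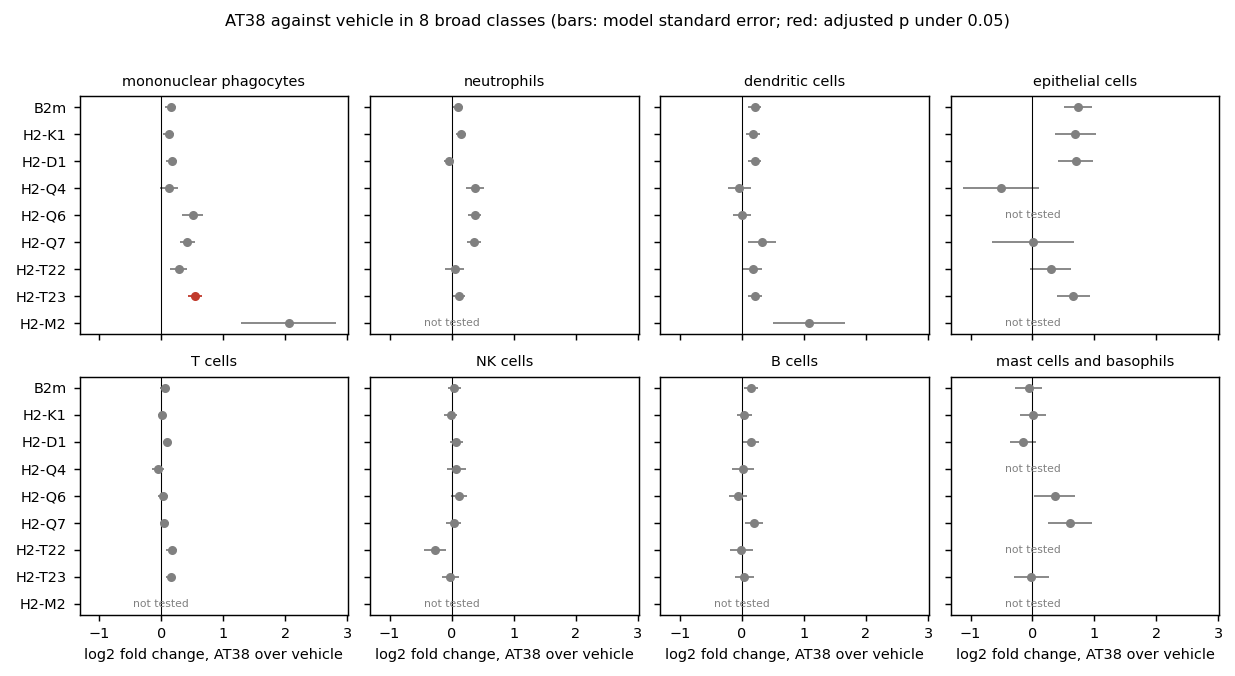
Log2 fold change, AT38 over vehicle, of each member (rows) in 8 broad cell classes (panels), with bars for the model's standard error and red for an adjusted p below 0.05. All 9 phagocyte points lie right of 0 and only H2-T23 (0.55) is red. Epithelial points carry wide bars, and members under the count filter are marked as not tested.

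H2-M2 stood apart from every other member in where it was found. Macrophages held 39.8% of its 2108 UMIs and mature dendritic cells 16.0%. Cells left without a name held 42.7%, of which 25.9 points came from cells of macrophage clusters and 13.1 points from cells of mature dendritic cell clusters that were set aside for T cell UMIs. Its level was 129 and 331 CPM in AT38 macrophages, against 69.4 and 39.2 CPM in vehicle macrophages. In mature dendritic cells it was 121 and 86.4 CPM in AT38 libraries, against 24.2 and 65.9 CPM in vehicle libraries. The groups did not overlap in either class, and 13.5% of genes tested in mature dendritic cells stood higher in this way. Monocytes averaged 2.21 ± 2.61 CPM (n = 4), and no UMI was counted in NK cells, conventional CD4 T cells, regulatory T cells, cDC1 or epithelial cells.

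Within the named macrophages, H2-M2 sat almost wholly in 1 of 2 clusters. In the cluster led by Ccl24, Mmp12, Arg1 and Mmp13 it stood at 161 and 382 CPM in AT38 libraries and 81.5 and 46.3 CPM in vehicle libraries. In the cluster led by Folr2, Ccl8, Pmp22 and Lyve1 it stood at 5.10 and 0 CPM in AT38 libraries and at 0 CPM in both vehicle libraries. Of the cells set aside for T cell UMIs, 4 of 74 in the Folr2 cluster held 19 H2-M2 UMIs. In the Ccl24 cluster 53 of 299 such cells held 528. Zmynd15 (r = 0.899 over the 14 classes), Ccl24 (0.847), Cebpg (0.832), Plekhm2 (0.801) and Arg1 (0.779) were the genes most like H2-M2. Of the mature dendritic cells, those in the cluster led by Fscn1 and Ccl22 had 148 and 94.9 CPM in AT38 libraries and 24.8 and 76.0 CPM in vehicle libraries. The 60 cells given that name in the cluster led by Plet1 and Ccl17, which also holds 317 of the cDC2, had 0 CPM in all 4 libraries.

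Few cells carried most of the H2-M2 count. A UMI was found in 29 of 157 and 24 of 102 AT38 macrophages, and in 10 of 132 and 17 of 234 vehicle macrophages. The 10 highest cells held 77.9% and 75.1% of the UMIs in AT38 macrophages and 100% and 87.5% in vehicle macrophages. After every cell was thinned to 1000 UMIs, 7.91% of 253 AT38 macrophages (exact 95% interval 4.90% to 11.9%) and 3.30% of 364 vehicle macrophages (1.71% to 5.69%) kept a UMI. Without thinning the shares were 20.5% in AT38 macrophages, at a median depth of 10037 UMIs, and 7.38% in vehicle macrophages, at 8522 UMIs. In B cells, which serve as the background, 0 of 407 AT38 cells and 0 of 804 vehicle cells kept one, which allows shares of up to 0.737% in AT38 cells and 0.373% in vehicle cells. These intervals cover counting error within the pooled libraries only.

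The difference in H2-M2 did not pass the test with all 4 libraries. Its log2 fold change was 2.05 ± 0.76 in phagocytes (adjusted p = 0.491, edgeR), 2.08 ± 0.65 in macrophages (adjusted p = 0.335, edgeR) and 1.10 ± 0.35 in mature dendritic cells (adjusted p = 0.917, edgeR). AT38 library 2 was the highest, and without it the value was 1.35 in phagocytes and 1.27 in macrophages. In macrophages the difference passed without AT38 library 1 (2.64, adjusted p = 0.0169, edgeR), and in phagocytes with cells thinned to 1000 UMIs (2.04, adjusted p = 0.000588, edgeR). In mature dendritic cells it passed under 4 of 8 alternatives. These were without vehicle library 2 (2.07, adjusted p = 0.00446, edgeR), without AT38 library 2 (1.31, adjusted p = 0.000827, edgeR), with the replicate block (1.12, adjusted p = 0.00131, edgeR) and with no filter on low counts (1.11, adjusted p = 0.00287, edgeR). Without vehicle library 1 its value was 0.70 (adjusted p = 0.997, edgeR).

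**Figure D4:**
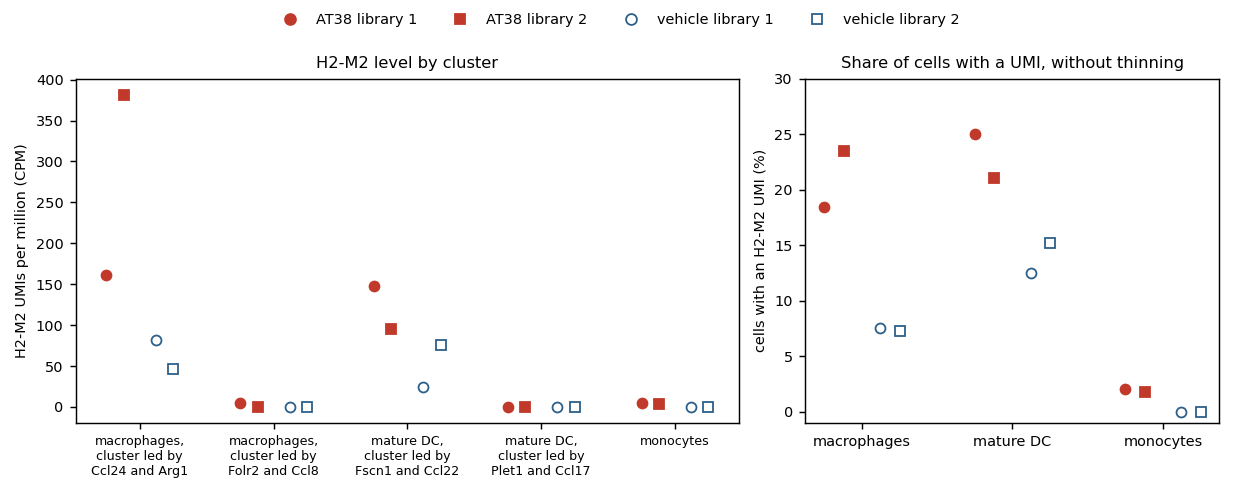
Left, H2-M2 in CPM (y axis) by cluster of macrophages, mature dendritic cells and monocytes, one symbol per library, filled red for AT38 and open blue for vehicle. Right, the percentage of cells with an H2-M2 UMI without thinning. The macrophage cluster led by Ccl24 and Arg1 reaches 382 CPM in AT38 library 2, and the cluster led by Folr2 and Ccl8 stays at or below 5.10 CPM.

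Neutrophils, the largest class, had higher CPM of all but 1 member in both AT38 libraries, and no member passed the test. Of 9 members, 8 had both AT38 libraries above both vehicle libraries, against 37.3% of the 8336 genes tested, so much of this is the background of the class. The 8 include H2-M2, which had 6 UMIs in all neutrophils, fell under the count filter and was not tested. The CPM values and the count of 8 use library totals, whereas the fitted fold changes use TMM scaling: H2-D1 is among the 8 with a fitted value of -0.05. Leaving out TMM moved the median of all genes by 0.12 on the log2 scale, and the genes called were then 343 higher and 158 lower, against 110 higher and 268 lower with it. None of 8 tested members was called by edgeR and none by DESeq2, against 4.53% of all genes in either direction. At an unadjusted p below 0.05, 3 members were: H2-Q4, H2-Q6 and H2-Q7. The share of all genes at that unadjusted level is not given, so such counts, here and below, are not read as a result. The groups also lay in different neutrophil clusters. The cluster led by Stfa2l1 and S100a8 held 24.7% and 24.3% of the neutrophils in AT38 libraries and 40.6% and 41.9% in vehicle libraries, and the cluster led by S100a8, S100a9 and Adamdec1 held 41.8% and 39.3% in AT38 libraries and 23.2% and 27.8% in vehicle libraries. The part of this in the neutrophil values was not tested.

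H2-Q6 stood at 151 and 157 CPM in AT38 neutrophils, against 109 and 109 CPM in vehicle neutrophils (0.37 ± 0.11, adjusted p = 0.056, edgeR). H2-Q7 stood at 191 and 203 CPM in AT38 neutrophils, against 153 and 129 CPM in vehicle neutrophils (0.37 ± 0.11, adjusted p = 0.074, edgeR). H2-Q4 stood at 99.1 and 108 CPM in AT38 neutrophils, against 86.3 and 61.4 CPM in vehicle neutrophils (0.38 ± 0.15, adjusted p = 0.169, edgeR). Without TMM scaling these 3 and H2-K1 were called, and H2-D1 had 0.08 in place of -0.05. H2-T23 stood at 219 and 227 CPM in AT38 neutrophils and 189 and 188 CPM in vehicle neutrophils (0.12 ± 0.10, adjusted p = 0.560, edgeR).

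Dendritic cells as a whole gave no call among 9 members (0.01% of all genes tested, 0 members by DESeq2 and 0 at an unadjusted p below 0.05). Among their subsets, H2-Q7 rose in cDC2, the dendritic cells that mainly prime CD4 T cells. It stood at 205 and 173 CPM in AT38 cDC2, against 125 and 121 CPM in vehicle cDC2, and the groups did not overlap, against 16.6% of genes tested that stood higher in this way. The log2 fold change was 0.66 ± 0.13 (adjusted p = 0.0143, edgeR), and 0.131% of 8400 genes were called higher in this class (0.31% in either direction). In cDC2 the mature dendritic cell markers summed to 573 and 771 CPM in AT38 libraries and 836 and 833 CPM in vehicle libraries, and the part of this in the result was not tested. The call was lost without AT38 library 1 (0.52, adjusted p = 0.0963, edgeR) and with DESeq2 (0.65, adjusted p = 0.0968). In cDC1, H2-Q7 stood at 164 and 146 CPM in AT38 libraries and 85.9 and 146 CPM in vehicle libraries, and it was not called.

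No other member was called when the finer classes were fitted one by one. In macrophages 5 of 9 tested members and in monocytes 4 of 8 had an unadjusted p below 0.05. In both classes 0 were called by edgeR or DESeq2, with 1.75% and 0.581% of all genes tested called in either direction. The shares in this paragraph are of calls by adjusted p and are no background for the unadjusted counts. In cDC1 2 members and in mature dendritic cells 1 had such a p, and 0 were called by edgeR or DESeq2, with 0.453% and 0.0555% of all genes called. In CD8 T cells, conventional CD4 T cells, regulatory T cells and undivided T cells no member had such a p or was called by edgeR or DESeq2, and 0.012%, 0.0339%, 0.208% and 0.0625% of all genes were called.

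**Figure D5:**
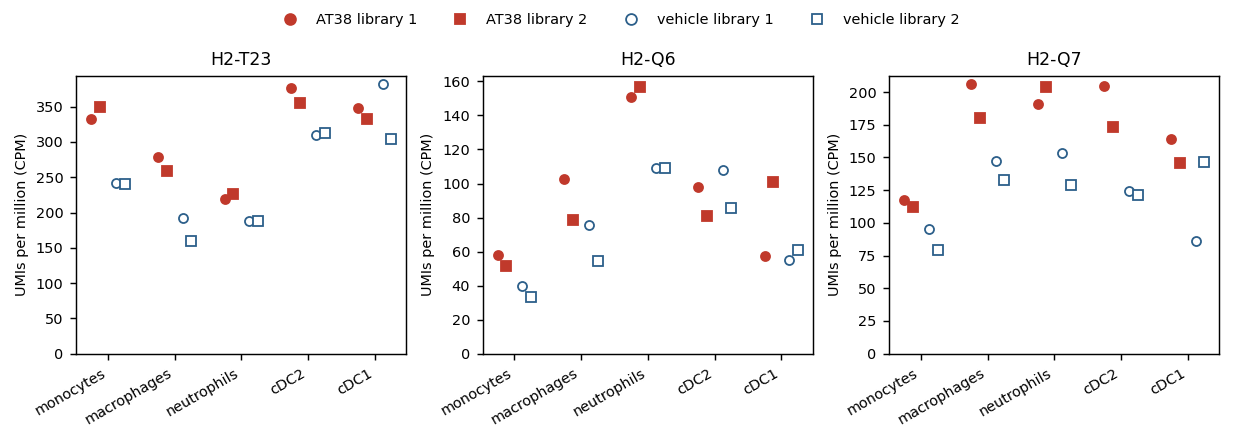
H2-T23, H2-Q6 and H2-Q7 in CPM (y axes starting at 0) in monocytes, macrophages, neutrophils, cDC2 and cDC1, one symbol per library, filled red for AT38 and open blue for vehicle. H2-T23 separates the groups in monocytes (333 and 350 CPM in AT38, 243 and 241 CPM in vehicle) and macrophages, and H2-Q7 does so in cDC2.

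The epithelial cells, named from tumour and ductal markers, were few and uneven in depth, and no member was called in them. There were 39 and 33 cells in the AT38 libraries and 65 and 69 in the vehicle libraries, with median depths of 2811 and 4446 UMIs in the AT38 libraries and of 11816 and 5946 UMIs in the vehicle libraries. B2m stood at 1838 and 1745 CPM in AT38 epithelial cells, against 932 and 1152 CPM in vehicle epithelial cells. H2-D1 stood at 676 and 589 CPM in AT38 epithelial cells, against 436 and 309 CPM in vehicle epithelial cells. H2-T23 stood at 132 and 147 CPM in AT38 epithelial cells, against 89.1 and 81.0 CPM in vehicle epithelial cells, and H2-K1 at 472 and 725 CPM in AT38 epithelial cells, against 421 and 289 CPM in vehicle epithelial cells.

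These 4 members, of 9 listed and 7 tested, did not overlap between the groups, against 16.4% of all genes tested higher in this way. Their log2 fold changes were 0.74 ± 0.22, 0.70 ± 0.28, 0.66 ± 0.27 and 0.69 ± 0.33 in the order given, with adjusted p = 1.00 each (edgeR). None of 7 tested members was called by edgeR or DESeq2, and 0 of 9157 genes were called, while 3 members had an unadjusted p below 0.05. The 10 deepest cells held 70.5% and 91.4% of the UMIs in the AT38 libraries and 57.1% and 51.7% in the vehicle libraries. With each cell scaled to its own total and given equal weight, H2-T23 overlapped between the groups. It then averaged 158 and 57.5 CPM in AT38 libraries and 62.4 and 59.5 CPM in vehicle libraries. The means of B2m, H2-K1 and H2-D1 did not overlap in this way. Medians over cells overlapped for H2-K1, at 218 and 57.6 CPM in AT38 libraries and 130 and 38.0 CPM in vehicle libraries. For H2-D1 the medians overlapped too (187 and 77.8 CPM in AT38 libraries, 85.2 and 34.7 CPM in vehicle libraries), and for B2m they did not. Neutrophil markers summed to 4087 and 20.3 CPM in AT38 epithelial cells and 219 and 339 CPM in vehicle epithelial cells. In the cells with no Ptprc UMI, 25 and 29 in the AT38 libraries and 51 and 50 in the vehicle libraries, B2m stood at 1813 and 2304 CPM in AT38 cells, against 801 and 1006 CPM in vehicle cells. In the same cells H2-K1 overlapped between the groups, with 365 and 1317 CPM in AT38 cells and 406 and 94.1 CPM in vehicle cells, while H2-D1 and H2-T23 did not. The part of depth and of neutrophil RNA in these values was not tested.

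T cells, NK cells, B cells and mast cells gave no called member by edgeR or DESeq2, with 0.0654%, 0.0756%, 0.392% and 0% of genes called in all. In T cells 1 member of 8, H2-T23, had an unadjusted p below 0.05, and in the other 3 classes none had. H2-T23 in T cells stood at 357 and 348 CPM in AT38 libraries and 310 and 333 CPM in vehicle libraries, a log2 fold change of 0.16 ± 0.07 (adjusted p = 0.744, edgeR). H2-K1 in T cells stood at 3250 and 3113 CPM in AT38 libraries and 3109 and 3294 CPM in vehicle libraries, which overlap.

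Whether the AT38 effect differed between classes was tested with 4 pairs of classes, and no member passed. For H2-T23 the effect in neutrophils minus that in phagocytes was -0.42 ± 0.14 (adjusted p = 0.183, edgeR), and the effect in T cells minus that in phagocytes was -0.39 ± 0.13 (adjusted p = 0.368, edgeR). At an unadjusted p below 0.05, 5 of the 35 values tested over the pairs were. In all, 1.14% of genes differed between neutrophils and phagocytes, 0.313% between T cells and phagocytes, 0% between epithelial cells and phagocytes and 0.00883% between epithelial cells and neutrophils. The call of H2-T23 in phagocytes and not elsewhere is therefore not shown to be particular to phagocytes.

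Of the gene lists around class I, that of interferon-induced genes held the most calls. Of its 20 genes, 10 rose in AT38 phagocytes and 0 fell, against 1.46% of all genes tested called higher there, with a median log2 fold change of 0.84. They included Bst2, which tethers virions (0.75 ± 0.11, adjusted p = 0.000873, edgeR), Irf7, which amplifies type I interferon (0.96 ± 0.14, adjusted p = 0.00142, edgeR), the GTPase Gbp4 (0.95 ± 0.15, adjusted p = 0.00162, edgeR) and the antiviral Ifit3 (2.07 ± 0.33, adjusted p = 0.00244, edgeR). Leaving out 1 library in turn gave between 7 and 10 higher, DESeq2 gave 6 and thinning to 1000 UMIs gave 6. In neutrophils 3 of 17 tested members of this list rose, Gbp4 and Isg15 among them, and 0 fell, against 1.32% of all genes tested called higher. That count ran between 3 and 8 over the alternatives.

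Of the 13 genes of peptide supply and loading, Psmb9, a subunit of the immunoproteasome, rose in AT38 phagocytes (0.55 ± 0.12, adjusted p = 0.0152, edgeR) and the other 12 did not pass. Of all genes tested there, 1.46% were called higher. Psmb9 kept its call under 9 of 14 alternatives and lost it without AT38 library 1 (0.48), without vehicle library 2 (0.44), with DESeq2 (0.55), thinned (0.71) and with cells holding T cell UMIs kept (0.44). Psmb8, another of its subunits, had 0.39 ± 0.11 (adjusted p = 0.072, edgeR) and Tap1, a chain of the peptide transporter, had 0.27 ± 0.12 (adjusted p = 0.354, edgeR). In neutrophils 3 of 13 rose, against 1.32% of all genes tested called higher. They were Psme2, an activator of the proteasome (0.50 ± 0.10, adjusted p = 0.00656, edgeR), Psmb8 (0.47 ± 0.10, adjusted p = 0.0122, edgeR) and Psmb9 (0.48 ± 0.11, adjusted p = 0.0131, edgeR). The count ran from 1, with thinned cells, to 6 over the alternatives. Thinned, Psme2 (0.41, adjusted p = 0.0964, edgeR), Psmb8 (0.44, adjusted p = 0.124, edgeR) and Psmb9 (0.45, adjusted p = 0.105, edgeR) were not called. Psmb9 kept its call under 11 of 14 alternatives in neutrophils. It also lost it without AT38 library 2 (0.45) and with DESeq2 (0.48, adjusted p = 0.0545). The median of this list was 0.14 in phagocytes and 0.32 in neutrophils, against -0.000483 and 0.00793 over all genes tested.

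Of the 15 regulators of class I transcription, 1 rose in AT38 phagocytes and 1 in AT38 neutrophils, against 1.46% and 1.32% of all genes tested called higher. In neutrophils the median of the list was -0.12 and 4 of 15 had positive values. Stat2, a signal carrier of type I interferon, was the one in phagocytes (0.72 ± 0.16, adjusted p = 0.0251, edgeR). It kept its call under 8 of 14 alternatives and lost it without AT38 library 2 (0.59), without vehicle library 1 (0.79), without vehicle library 2 (0.61), with DESeq2 (0.72), thinned (0.56) and with cells holding T cell UMIs kept (0.66). Of the receptors that read class I, Pira2, an activating receptor of myeloid cells, fell in AT38 neutrophils (-0.70 ± 0.15, adjusted p = 0.0120, edgeR; 0.0556 with DESeq2), with 4 of 15 listed genes tested in phagocytes and 5 in neutrophils. Of 12 other class I genes, 5 passed the count filter in phagocytes and none was called there, H2-Q10 having the smallest p (0.75 ± 0.28, adjusted p = 0.222, edgeR). No gene of these lists was called in dendritic cells, epithelial cells, T cells, NK cells or mast cells. In B cells 1 of 11 tested interferon-induced genes was called higher, against 0.392% of all genes called in either direction. Of those 11 genes, 10 had positive values, and their median was 0.57. In macrophages fitted alone, 1 of 4 tested receptors was called lower, against 1.75% of all genes called in either direction.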

How the data were processed

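The authors deposited droplet 3′ single-cell RNA-seq as UMI counts per gene and barcode for 4 libraries. The submitters' processing notes name Cell Ranger 3.1.0 and the build mm10. The annotation release is not given in the sources used here. Promoter sequences are RefSeq's, GRCm38.p6. The members and gene lists were chosen with earlier results of these data known, and the thresholds for naming clusters were set with the clusters in view. Replicates are pools of mice, so p-values measure the spread between pools.

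Kept cells had at least 500 UMIs, 200 genes and at most 10% mitochondrial UMIs, and predicted doublets were removed. Cells were clustered (scanpy 1.11.5, 2000 variable genes without H2 genes or B2m, 30 components, Leiden resolution 1.0) and named from markers. Cells of other classes with 3 or more T cell UMIs stayed unnamed. This set aside 373 cells of macrophage clusters, beside 625 macrophages kept. It also set aside 197 cells of mature dendritic cell clusters, beside 401 mature dendritic cells kept. Counts were summed per library and class with at least 20 cells in each library and tested with edgeR 4.0.16 (quasi-likelihood, TMM), adjusted over all genes of the class. The threshold was an adjusted p of 0.05. DESeq2 1.42.0 and other settings were alternatives. Intervals are exact binomial at 95%, the limit of a count of 0 is 3 counts, and both cover counting error only. All 9 members are reported, with at most 4 genes per list by smallest p and 5 most alike in level; a gene of these lists is not reported here. The code was tested on simulated counts.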

Additional observations from a re-analysis of the deposited data

Results flagged for a closer look

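H2-T22 stood higher in both AT38 libraries in one class and lower in both in 2 others. In mononuclear phagocytes AT38 libraries averaged 83.3 CPM and vehicle libraries 67.8 CPM, a difference of 15.5 CPM. In NK cells AT38 libraries averaged 130 CPM and vehicle libraries 156 CPM, a difference of -26.4 CPM. In mast cells and basophils the averages were 41.7 CPM in AT38 libraries and 44.1 CPM in vehicle libraries, a difference of -2.42 CPM. These differences between classes were not tested, and H2-T22 passed no test in any class.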

How the results depend on the processing

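Leaving out 1 library leaves an arm with 1 library, whose spread is then assumed to be like that of the others. Keeping cells with T cell UMIs and thinning before summing were chosen after seeing the data. The number of members called in the broad classes, 1 in the report, ran between 1 and 3 when 1 library was left out. It was 5 without TMM scaling (H2-T23 in phagocytes and H2-K1, H2-Q4, H2-Q6 and H2-Q7 in neutrophils), 4 with no filter on low counts (H2-Q6, H2-Q7 and H2-T23 in phagocytes and H2-Q7 in neutrophils), 2 with a mitochondrial maximum of 20% and 0 with cells holding T cell UMIs kept. Thinned to 1000 UMIs before summing, it was 1, and the gene was H2-M2 in phagocytes in place of H2-T23. In the finer classes, 1 in the report, it ran between 1 and 3 with 1 library left out and was 3 with no filter, 2 without TMM scaling and 0 with DESeq2. H2-T23 in phagocytes kept its call under 11 of 14 alternatives and H2-Q7 in cDC2 under 6 of 8. These counts are not alike, because changes to the cell steps were made in the broad classes only. H2-Q7 in cDC2 was thus not tried with thinned cells or with T cell UMIs kept, which each cost H2-T23 its call. From cDC2 clusters, 143 cells had been set aside for T cell UMIs. Over all alternatives, those that lost the call included, the log2 fold changes ran from 0.30 to 0.64 for H2-T23 and from 0.52 to 0.78 for H2-Q7. The labels do not say whether replicate numbers pair the libraries, and 2 libraries per group are too few to settle it. Same-numbered libraries deviated with r between -0.048 and 0.043 in 5 classes, 0.217 in dendritic cells and -0.232 in epithelial cells. With replicate number as a block, 1 member was called in the broad classes and 3 in the finer ones (H2-M2 in mature dendritic cells, H2-Q7 in cDC2 and H2-T23 in monocytes). The fit of the differences between classes held a term for each library, so it paired the classes by library. A replicate block could not be added to it, because the library terms already hold it. Of those differences, 0 members were called in the report and between 0 and 2 with 1 library left out (H2-Q6 and H2-Q7, T cells minus phagocytes, without AT38 library 2). The members that reversed were not called: H2-Q4 in phagocytes had -0.007 with T cell UMIs kept and -0.0489 thinned, against 0.13; H2-D1 in neutrophils had 0.0752 without TMM scaling, against -0.05; and H2-T22 in neutrophils had -0.0034 thinned and between -0.0466 and 0.139 with 1 library left out, against 0.05. The cause was not tested. H2-M2 in AT38 macrophages was found in 20.5% of cells without thinning and 7.91% with it. Mean B2m in epithelial cells stayed between 1277 and 1579 CPM with 1 library left out, and was 1481 CPM with 0 Ptprc UMIs and 1403 CPM with doublets kept. Genes called in phagocytes numbered 246 in the report, 98 with T cell UMIs kept, 104 thinned, 114 with DESeq2 and 519 with no filter. Epithelial values rest on 33 to 69 cells per library and H2-M2 on 2108 UMIs, which limits their precision.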
